A study of Mus musculus with 4 samples.

Results

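The 39 genes described here are immediate-early and heat shock genes, taken as a list of symbols from the 32285 genes of the feature tables. Of these, 26 are immediate-early members and 13 are heat shock members, and all 39 symbols were found.

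The cells came from the hearts of adult mice that received carboplatin, a platinum drug that crosslinks DNA, at 45 mg/kg, or the same volume of PBS. Injections were made into the peritoneum, 2 per week for 2 weeks. The mice then recovered for 4 weeks, after which an osmotic minipump delivered for 7 days either angiotensin II with phenylephrine (AngII/PE) or saline. The doses were 1.5 mg/kg per day of angiotensin II and 50 mg/kg per day of phenylephrine, agents that raise blood pressure and load the heart. The 4 groups were carboplatin then AngII/PE, PBS then AngII/PE, carboplatin then saline, and PBS then saline, each as 1 library made from 5 pooled mice of mixed sex, and no strain or genotype is given in the sources used here. Hearts were digested with enzymes, CD64+ phagocytes (CD45+, CD11b+, Ly6G negative, Ly6C low) were sorted, and 10000 cells per group were loaded for droplet sequencing of RNA 3′ ends with unique molecular identifiers (UMIs).

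Immediate-early genes are switched on within minutes of a stimulus from transcription factors already present in the cell, among them serum response factor, which binds the CArG box. Many of their products are themselves transcription factors or feedback inhibitors, and their RNAs are short-lived. Heat shock genes encode chaperones that refold or hold unfolded proteins, and heat shock factor 1 binds inverted repeats of a 5-base unit in their promoters. Both groups are also known to respond when tissue is digested into single cells.

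The promoter stretches below show the binding letters these descriptions refer to. They are from RefSeq on GRCm38.p6 and run 5′ to 3′ on the gene's strand. Each of the 5 is the 200 bases before an annotated start. Capitals in the first 3 mark a heat shock pair (GAANNTTC or TTCNNGAA), and those of Egr2, which has more than 1 annotated start, mark the CArG box. Hspa1a is shown from chr17:34972157-34972356, Hspa1b from chr17:34959239-34959438, both on the minus strand, and Hspb1 from chr5:135887719-135887918 on the plus strand. The Egr2 stretches are chr10:67537366-67537565 and chr10:67537669-67537868 on the plus strand. No annotated exon overlaps these 5 stretches.
Hspa1a: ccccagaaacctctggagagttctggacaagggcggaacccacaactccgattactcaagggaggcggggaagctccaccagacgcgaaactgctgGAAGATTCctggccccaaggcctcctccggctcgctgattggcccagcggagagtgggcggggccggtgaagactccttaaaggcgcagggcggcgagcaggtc
Hspa1b: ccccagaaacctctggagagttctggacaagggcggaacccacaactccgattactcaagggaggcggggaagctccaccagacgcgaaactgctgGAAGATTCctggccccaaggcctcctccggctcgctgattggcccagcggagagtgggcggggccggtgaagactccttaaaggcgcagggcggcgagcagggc
Hspb1: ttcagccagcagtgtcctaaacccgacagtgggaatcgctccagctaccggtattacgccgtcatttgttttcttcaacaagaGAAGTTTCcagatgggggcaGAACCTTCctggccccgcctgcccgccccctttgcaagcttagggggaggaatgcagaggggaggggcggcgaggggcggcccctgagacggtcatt
Egr2, upstream start: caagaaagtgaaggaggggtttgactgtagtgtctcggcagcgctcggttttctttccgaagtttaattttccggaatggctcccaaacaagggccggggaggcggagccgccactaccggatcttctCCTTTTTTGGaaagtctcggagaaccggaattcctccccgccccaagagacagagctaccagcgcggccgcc
Egr2, downstream start: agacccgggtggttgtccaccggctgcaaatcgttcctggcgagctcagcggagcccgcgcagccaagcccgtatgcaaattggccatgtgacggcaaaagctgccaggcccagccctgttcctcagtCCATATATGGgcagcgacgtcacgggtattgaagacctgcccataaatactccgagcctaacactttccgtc

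Hspa1a and Hspa1b, neighbours that both encode inducible HSP70, had the same base at 199 of these 200 positions (99.5%), and each held its pair 97 bases before the start. Their counts are reported apart as deposited, but reads that fit both copies could be split or dropped by the alignment, so the division between them is uncertain. Hspb1, the small heat shock protein HSP25, held 2 pairs, the nearer one 90 bases before the start. Both Egr2 stretches shown held the box 63 bases before the start, and are named upstream and downstream only against each other. The window of an Egr2 start further upstream, chr10:67535249-67535548, held no box. A longer element of 3 units (GAANNTTCNNGAA or TTCNNGAANNTTC) lay in the windows of 3 members, Hsph1, Hspe1 and Hspd1. The last 2 are neighbours that run head to head and share the element. Since annotated exons cover these places, 30 bases round each are shown, with the element in capitals. For Hspe1 and Hspd1 the capitals cover 18 letters, which hold 2 overlapping matches of the element.
Hsph1, chr5:149636279-149636308, minus strand: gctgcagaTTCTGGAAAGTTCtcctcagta
Hspe1 and Hspd1, chr1:55088053-55088082, plus strand: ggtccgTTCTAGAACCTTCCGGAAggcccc

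Promoter windows of 300 bases were found for 33 of the 39 genes, and both strands were searched. The 3-unit element was in 0.603% of all 32851 windows. A single pair was in 15.1% of windows and in those of 11 of the 33 members, 8 of them heat shock members. The CArG box was in 1.63% of windows, among them that of Zfp36 and some but not all of those of Egr2. The cAMP response element TGACGTCA was in 1.79% and in those of Btg2 and Dusp1, and the AP-1 site TGANTCA was in 7.81% and in that of Hspa5. These are matches of letters in a fixed window and say nothing about binding in these cells.

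The libraries held 5997 to 8012 cell barcodes and 62943457 to 95752612 UMIs, and 17312 of 27968 barcodes passed the study's stated limits on genes, UMIs and mitochondrial share. The mitochondrial limit removed 43.2% of barcodes after carboplatin then saline and 22.7% to 31.1% of those in each other library, and 79 barcode sequences occurred in more than 1 library. Cells were clustered and named from marker genes: 3921, 2127, 1017 and 1949 macrophage-like cells (in the order carboplatin then AngII/PE, PBS then AngII/PE, carboplatin then saline, PBS then saline), 304 to 598 endothelial-like, 70 to 115 fibroblast-like and 120 to 200 dendritic-like cells per library. The endothelial-, fibroblast- and B cell-like classes are cells that the CD64+ sort was meant to leave out. All 10 macrophage markers, among them Csf1r, Fcgr1 (which encodes CD64) and C1qa, were detected in the macrophage-like class of every library, with a sum of 16456 to 21467 CPM. Further cells with macrophage markers lay in clusters left unnamed for low UMIs or for lack of raised markers, 16.2% to 33.6% of the kept cells, and most of these low-UMI cells of the saline libraries were in another cluster than those of the AngII/PE libraries. Most macrophage-like cells of the saline libraries lay in a resident cluster led by Lyve1 (844 of them after carboplatin, 1779 after PBS), and most of those of the AngII/PE libraries in 3 clusters led by Fcrls, by Sh2d1b1 and by Cxcl2.

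A level here (CPM) is the UMIs of a gene per 1000000 UMIs of the class and library. It is not divided by gene length, so it is set only against the same gene elsewhere. As every group is a single library, no spread between replicates exists and no test was made. A member is called where it was at least 1.5-fold higher or lower; genes whose level averaged under 10 CPM across the 4 libraries were not compared, and each 95% interval covers counting error only. The pooled mice, the sort, the library preparation and the treatment of a group cannot be told apart.

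Over all macrophage-like cells, male and female together, the heat shock members were highest after PBS then saline and lowest in both AngII/PE libraries. Their summed level was 4539 CPM after carboplatin then AngII/PE and 4473 CPM after PBS then AngII/PE, against 6260 CPM after carboplatin then saline and 8322 CPM after PBS then saline. The immediate-early members spread less, with a summed level of 10057 and 10091 CPM in the 2 AngII/PE libraries (carboplatin, then PBS), against 11328 and 13575 CPM in the 2 saline libraries (carboplatin, then PBS). The order of the heat shock sums differed in cells called female from their RNA, as described below. There they were 5265 and 4726 CPM under AngII/PE and 6232 and 5286 CPM under saline (carboplatin, then PBS). Carboplatin then saline was thus the highest in those cells.

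**Figure D1:**
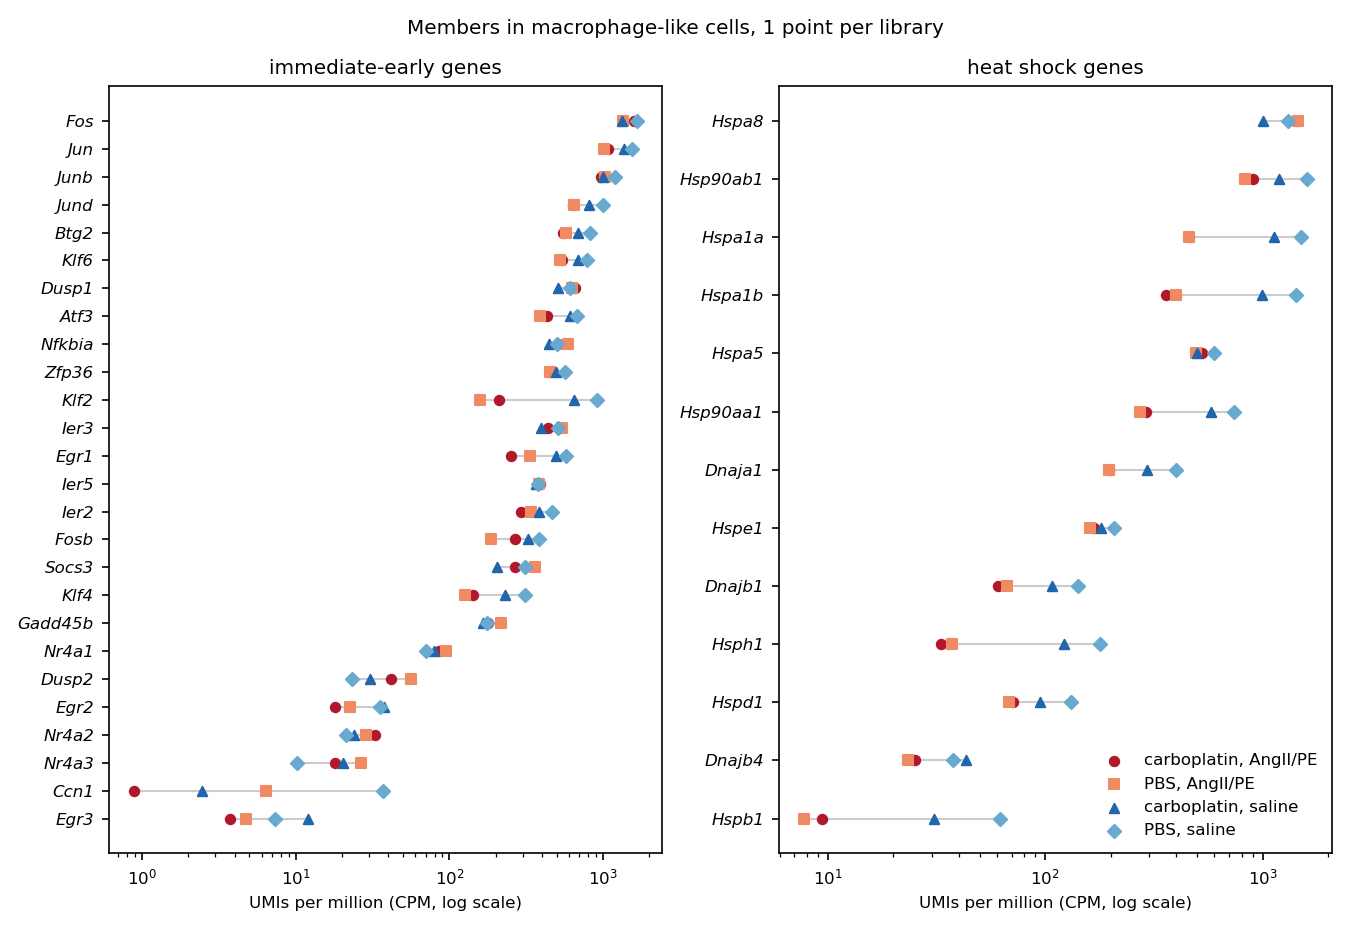
Level of each of the 39 members in macrophage-like cells (x axis, CPM on a log scale), 1 point per library, immediate-early members left and heat shock members right. Klf2, Klf4, Hspa1a, Hspa1b, Hsph1 and Hspb1 have both AngII/PE points below both saline points, and Ier5 (364 to 388 CPM) and Hspe1 (161 to 206 CPM) spread little.

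The comparison of AngII/PE with saline after PBS asks how pressure load changed these genes in hearts without the drug. Of the 13 heat shock members, 10 were at least 1.5-fold lower in macrophage-like cells, where 9.01% of all 8492 genes compared were lower by as much, and none was higher, where 8.23% were. Their median log2 ratio was -1.03, beside 0.0032 over all genes. Of the 25 immediate-early members compared, 9 were lower (Fosb, Jun, Jund, Egr1, Egr2, Atf3, Klf2, Klf4 and Ccn1) and 2 were higher (Nr4a3 and Dusp2), with a median of -0.34. Egr3, a zinc finger factor, was the 1 member under 10 CPM, at 3.72 to 12 CPM over the libraries. Ccn1 averaged above 10 CPM only through PBS then saline.

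Among the heat shock members the inducible chaperones carried the widest differences. Hspa1a had 457 CPM after PBS then AngII/PE and 1493 CPM after PBS then saline, 3.26-fold lower (3.20 to 3.33), and Hspa1b had 400 CPM and 1428 CPM in these libraries, 3.57-fold lower (3.5 to 3.64). Hsph1, the HSP110 nucleotide exchange factor that recharges HSP70, had 37.4 CPM under AngII/PE and 179 CPM under saline, 4.78-fold lower (4.48 to 5.09). Hspb1 had 7.76 CPM under AngII/PE and 61.6 CPM under saline, 7.94-fold lower (6.95 to 9.10), the largest fold among the 13. The AngII/PE library was the lower one for each of these 4 genes.

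The HSP90 pair and the J-domain co-chaperones followed with smaller folds. Hsp90aa1, the inducible HSP90, had 273 CPM after PBS then AngII/PE and 739 CPM after PBS then saline, and Hsp90ab1, its constitutive partner, had 826 and 1597 CPM. Dnajb1, the J protein that loads clients on HSP70, had 66.6 CPM under AngII/PE and 141 CPM under saline. Dnaja1 had 195 and 400 CPM and Dnajb4 had 23.3 and 37.8 CPM in the same order. These 5 genes were 1.62-fold to 2.70-fold lower under AngII/PE. Constitutive and organelle chaperones divided: the mitochondrial chaperonin Hspd1 had 68.5 CPM under AngII/PE and 131 CPM under saline, 1.92-fold lower, whereas its co-chaperonin Hspe1 (161 and 206 CPM), the endoplasmic reticulum HSP70 Hspa5 (495 and 595 CPM) and the constitutive HSP70 Hspa8 (1460 and 1313 CPM) stayed within 1.5-fold.

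Among the immediate-early transcription factors Klf2 had the largest fold. This factor, known to restrain inflammatory activation of macrophages and to respond to flow in endothelium, had 159 CPM after PBS then AngII/PE and 911 CPM after PBS then saline, 5.72-fold lower (5.55 to 5.89). Klf4, its relative, had 126 CPM under AngII/PE and 309 CPM under saline, 2.46-fold lower (2.37 to 2.56), and Klf6 had 526 and 785 CPM, within 1.5-fold. Their AngII/PE values were all below their saline values.

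The AP-1 subunits moved unequally. Fosb had 187 CPM under AngII/PE and 382 CPM under saline (2.04-fold lower), Jun 1019 and 1550 CPM (1.52-fold lower) and Jund 646 and 998 CPM (1.54-fold lower). Fos, with 1347 and 1654 CPM, and Junb, with 1037 and 1191 CPM, stayed within 1.5-fold. The stress factor Atf3, which pairs with AP-1 subunits, had 389 CPM under AngII/PE and 677 CPM under saline, 1.74-fold lower (1.70 to 1.78). Egr1, a zinc finger factor downstream of serum response factor, had 336 and 573 CPM (1.70-fold lower), and Egr2 had 22.6 and 35.4 CPM (1.57-fold lower, 1.42 to 1.73, an interval that reaches below the 1.5-fold line).

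Of the feedback inhibitors and orphan receptors none was called lower, and 2 were called higher. Dusp2, a phosphatase that switches off MAP kinases, had 56.6 CPM after PBS then AngII/PE and 23.2 CPM after PBS then saline, 2.43-fold higher (2.23 to 2.67), and Nr4a3, an orphan nuclear receptor, had 26.5 and 10.2 CPM, 2.59-fold higher (2.27 to 2.98). Within 1.5-fold were Dusp1 (625 and 612 CPM), Nfkbia, the inhibitor of NF-κB (593 and 502 CPM), Socs3, the inhibitor of cytokine receptor signalling (360 and 311 CPM), Zfp36, which degrades cytokine mRNAs (450 and 568 CPM), and Gadd45b (217 and 175 CPM). Nr4a1 had 94.6 and 70.4 CPM and Nr4a2 had 28.8 and 21.4 CPM, also within 1.5-fold. The remaining members, Ier2 (340 and 467 CPM), Ier3 (540 and 506 CPM), Ier5 (384 and 378 CPM) and Btg2 (572 and 824 CPM), were not called.

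After carboplatin the same comparison gave a smaller set. In macrophage-like cells 7 of 13 heat shock members and 5 of 25 immediate-early members were at least 1.5-fold lower under AngII/PE, where 7.56% of all genes were, and none was higher, where 7.54% were. The medians were -0.79 and -0.17, beside 0.037 over all genes. All 12 were also among the 19 lower members after PBS, and the 2 comparisons share no library. The same overlap was not counted over all genes, so it cannot be read as particular to the members. The 12 also include Ccn1, which met the minimum average of 10 CPM only through PBS then saline. That library is outside the comparison after carboplatin and is the reference of the one after PBS, so Ccn1 adds nothing to the overlap. Hspa1a had 461 CPM after carboplatin then AngII/PE and 1129 CPM after carboplatin then saline, 2.45-fold lower (2.40 to 2.50), Hsph1 had 33.3 and 122 CPM, 3.67-fold lower, and Hspb1 had 9.37 and 30.8 CPM, 3.29-fold lower. Hspa1b (360 and 991 CPM), Hsp90aa1 (290 and 581 CPM), Dnajb1 (60.3 and 108 CPM) and Dnajb4 (25 and 43.2 CPM) were 1.72-fold to 2.76-fold lower.

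Klf2 again stood out among the immediate-early members, with 211 CPM after carboplatin then AngII/PE and 649 CPM after carboplatin then saline, 3.08-fold lower (3.00 to 3.16). Klf4 had 143 CPM under AngII/PE and 230 CPM under saline (1.60-fold lower), Egr1 had 253 and 497 CPM (1.96-fold lower) and Egr2 had 18.1 and 37.7 CPM (2.09-fold lower). Ccn1 had 0.882 and 2.46 CPM, resting on 50 and 42 UMIs. Hspa8, at 1438 CPM under AngII/PE and 1001 CPM under saline, lay on the other side of 0, 1.44-fold higher and so short of a call. Fos had 1597 and 1320 CPM, Jun 1082 and 1359 CPM and Atf3 434 and 610 CPM in the same order, none past 1.5-fold.

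The members not called in macrophage-like cells after carboplatin were spread over both sides of 0. Lower under AngII/PE than under saline, in that order, were Jund (635 and 808 CPM), Fosb (267 and 323 CPM), Junb (972 and 994 CPM), Klf6 (537 and 684 CPM), Ier2 (293 and 381 CPM), Zfp36 (454 and 495 CPM), Btg2, an antiproliferative gene (552 and 689 CPM), and Nr4a3 (18.1 and 20.4 CPM). Of the chaperones Hsp90ab1 (900 and 1187 CPM), Dnaja1 (197 and 293 CPM), Hspd1 (71.3 and 94.2 CPM) and Hspe1 (167 and 180 CPM) lay on the same side. On the other side were Hspa5 (526 and 499 CPM), Ier3 (436 and 393 CPM), Ier5 (388 and 364 CPM), Nr4a1 (85.4 and 79.1 CPM), Nr4a2 (32.7 and 23.9 CPM), Dusp1 (653 and 512 CPM), Dusp2 (41.5 and 30.4 CPM), Gadd45b (179 and 166 CPM), Socs3 (268 and 204 CPM) and Nfkbia (505 and 444 CPM). All of these differences were under 1.5-fold.

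The comparison of carboplatin with PBS asks whether past exposure to the drug left a change in these genes. Under saline, 3 of 38 members were at least 1.5-fold lower after carboplatin in macrophage-like cells (2.11% of all genes were) and 1 was higher (1.66% were). The 3 lower members were Ccn1, Hspb1 and Socs3, and the higher one was Nr4a3. Hspb1 had 30.8 CPM after carboplatin and 61.6 CPM after PBS, 2.0-fold lower (1.81 to 2.21), Socs3 had 204 and 311 CPM, 1.53-fold lower (1.47 to 1.59), and Nr4a3 had 20.4 and 10.2 CPM, 1.99-fold higher (1.70 to 2.34). The other heat shock members lay within 1.5-fold but mostly on 1 side: 12 of 13, Dnajb4 being the exception, were below 0, with a median of -0.40 against -0.035 for all genes. This holds over all cells. In female-called cells 12 of 13 were above 0, with a median of 0.23, and in male-called cells the median was -0.88. With cells gated on marker UMIs in place of clusters, 8 members were called here.

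Ccn1, a secreted matrix protein better known from endothelial cells and fibroblasts, gave the largest ratio of any member in both carboplatin comparisons. Under saline it had 2.46 CPM after carboplatin (42 UMIs) and 36.7 CPM after PBS (1027 UMIs), 14.9-fold lower (11 to 20.8). Ccn1 met the minimum average of 10 CPM only through PBS then saline, and its level in each other library was under 10 CPM. Under AngII/PE it had 0.882 CPM after carboplatin (50 UMIs) and 6.40 CPM after PBS (207 UMIs), 7.26-fold lower (5.31 to 10.1). It was the only member called there, where 1.00% of all genes were lower and 0.436% higher. Few cells carried these counts: the 10% of macrophage-like cells with most Ccn1 held 87.0% of its UMIs after PBS then saline, and the highest cell had 40. With every cell thinned to 2000 UMIs, Ccn1 was found in 0.128% of macrophage-like cells after carboplatin then AngII/PE, 0.899% after PBS then AngII/PE, 0.493% after carboplatin then saline and 5.82% (4.82 to 6.96) after PBS then saline, and unthinned in 1.22%, 4.09%, 2.06% and 16.9%. Dendritic-like cells, which here carry almost none, had 0 to 2.74 CPM of Ccn1, with the highest value in the same library, PBS then saline.

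Under AngII/PE the carboplatin and PBS libraries were otherwise close in macrophage-like cells. The heat shock members had a median of 0.05 and the immediate-early members -0.05, beside 0.0053 over all genes. Hspa1a had 461 CPM after carboplatin and 457 CPM after PBS, Hsph1 33.3 and 37.4 CPM, Klf2 211 and 159 CPM, Egr1 253 and 336 CPM, and Fosb 267 and 187 CPM.

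Ccn1, Hspb1 and Klf2 are also abundant in endothelial-like cells, so markers of other cell types were measured in the macrophage-like class. The 8 endothelial markers summed to 61.7, 68.5, 53.7 and 42.7 CPM in macrophage-like cells (carboplatin then AngII/PE, PBS then AngII/PE, carboplatin then saline, PBS then saline), against 15366 to 20657 CPM in endothelial-like cells. The 8 fibroblast markers summed to 298, 267, 170 and 127 CPM in the same order, most of it Gsn at 117 to 265 CPM. Both lists were lowest after PBS then saline, where Ccn1, Hspb1 and Klf2 were highest. The part of these other cells in the values of the members was not tested. None of the 16 markers was at 0 in any library, and Cldn5, a tight junction gene of endothelium, had at most 0.402 CPM.

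**Figure D2:**
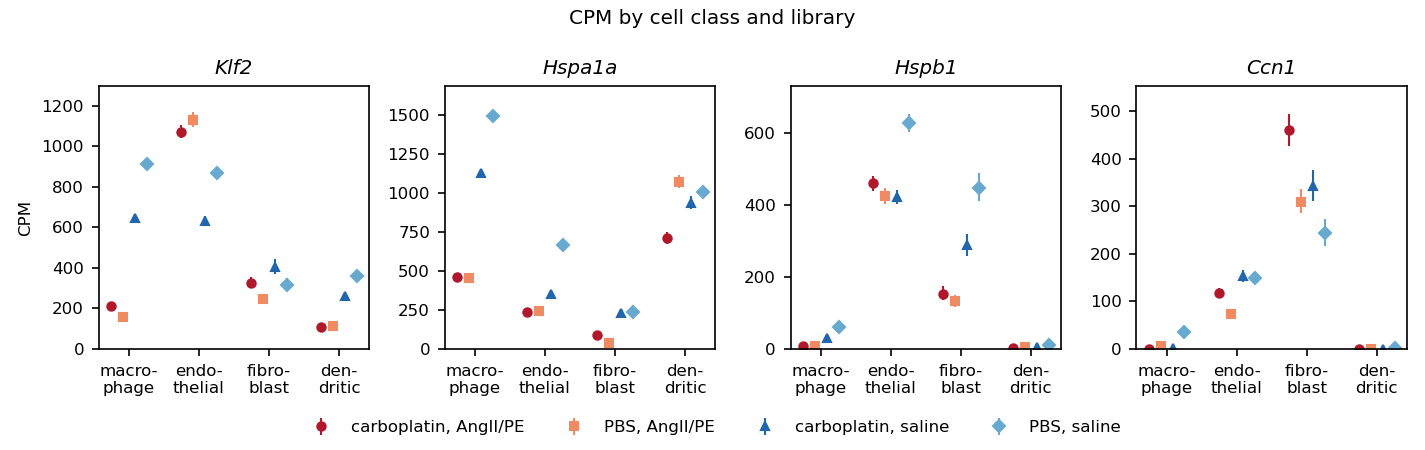
CPM of Klf2, Hspa1a, Hspb1 and Ccn1 (y axes start at 0) in 4 cell classes, 1 point per library, with 95% Poisson intervals for counting error. Klf2 is low in both AngII/PE libraries in macrophage-like cells and high in them in endothelial-like cells.

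In endothelial-like cells after PBS, 5 of 13 heat shock members (Hspa1a, Hspa1b, Hsph1, Hsp90aa1 and Hspd1) and 3 of 22 immediate-early members (Atf3, Gadd45b and Ccn1) were at least 1.5-fold lower under AngII/PE, where 11.1% of 9291 genes were, and Nr4a2 was higher, where 10.9% were. The medians were -0.52 and -0.022. Endothelial-like Hspa1a had 242 CPM after PBS then AngII/PE and 667 CPM after PBS then saline, 2.75-fold lower (2.55 to 2.98). In the female-called cells of the class Hspa1a had 163 and 288 CPM in the same order, on 60 and 139 cells. Their heat shock sums, however, were alike, at 4103 and 4056 CPM, against 4433 and 6785 CPM in the male-called cells. After carboplatin, Hspa1a and Hspa1b were lower by just over 1.5-fold (10.3% of all genes were lower), Hspa8 was 1.93-fold higher at 1188 CPM under AngII/PE and 617 CPM under saline (12.4% of all genes were higher), and the heat shock median was 0.043. Of the immediate-early members, Ier3, Klf2 and Socs3 were higher and Egr1 and Nr4a1 lower there.

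Klf2 ran opposite ways in these classes. Endothelial-like cells had 1073 CPM of Klf2 after carboplatin then AngII/PE and 630 CPM after carboplatin then saline, 1.70-fold higher (1.62 to 1.79), and 1132 CPM after PBS then AngII/PE and 870 CPM after PBS then saline. The macrophage-like values for the same pairs were 3.08-fold and 5.72-fold lower. In dendritic-like cells Klf2 had 106 and 113 CPM in the AngII/PE libraries (carboplatin, then PBS), against 260 and 360 CPM in the saline libraries (carboplatin, then PBS).

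In fibroblast-like cells members of both groups were lower under AngII/PE. After PBS, 11 of 13 heat shock members and 14 of 25 immediate-early members were at least 1.5-fold lower under AngII/PE, where 14.7% of 9599 genes were, and 4 immediate-early members were higher (Egr2, Egr3, Ier3 and Gadd45b), where 13.9% were. The medians were -1.15 and -0.70 over all cells of the class, and 0.28 and 0.30 in the female-called ones, of which 12 came from the AngII/PE library. After carboplatin, 8 of 13 and 15 of 25 were lower (17.8% of all genes were) and 3 were higher (14.1% were), with medians of -0.78 and -0.91. Fos had 570 CPM after carboplatin then AngII/PE and 530 CPM after PBS then AngII/PE, against 1364 CPM after carboplatin then saline and 1114 CPM after PBS then saline. Atf3 had 41.5 and 39.5 CPM in the AngII/PE libraries, against 209 and 159 CPM in the saline libraries, 5.05-fold lower after carboplatin (3.84 to 6.71) and 4.02-fold lower after PBS (3.06 to 5.32). In dendritic-like cells after PBS, 3 of 12 heat shock members were lower under AngII/PE (9.36% of all genes were), 5 of 25 immediate-early members were higher (8.96% were) and Klf2 was lower.

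Between carboplatin and PBS under saline, the heat shock medians were -0.31 in endothelial-like cells and -0.38 in fibroblast-like cells, over all cells of each class. The female-called cells ran the other way. Their heat shock sums were 4350 CPM after carboplatin and 4056 CPM after PBS in endothelial-like cells. In fibroblast-like cells they were 4492 and 3293 CPM, on 20 and 35 cells. The male-called sums were 4260 and 6785 CPM (endothelial-like) and 4956 and 9769 CPM (fibroblast-like). Endothelial-like Hspa1a, Hspa1b and Hsph1 were lower after carboplatin, as were Ier3 and Gadd45b (4.06% of all genes were), and Nr4a1 was higher (3.04% were). In fibroblast-like cells Hspa1b, Hspb1, Hspd1 and Hspe1 were lower (7.99% of all genes were), whereas Egr2, Btg2, Zfp36 and Nr4a3 were higher (8.18% were) and the immediate-early median was 0.35. Under AngII/PE the heat shock medians were 0.11 in endothelial-like and 0.24 in fibroblast-like cells, and the calls were Ccn1 higher and Nr4a2 lower in endothelial-like cells (3.49% of all genes were higher and 2.68% lower) and Nr4a2, Nr4a3, Hspa1a and Hspa1b higher and Egr2 lower in fibroblast-like cells (5.24% higher and 8.11% lower).

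**Figure D3:**
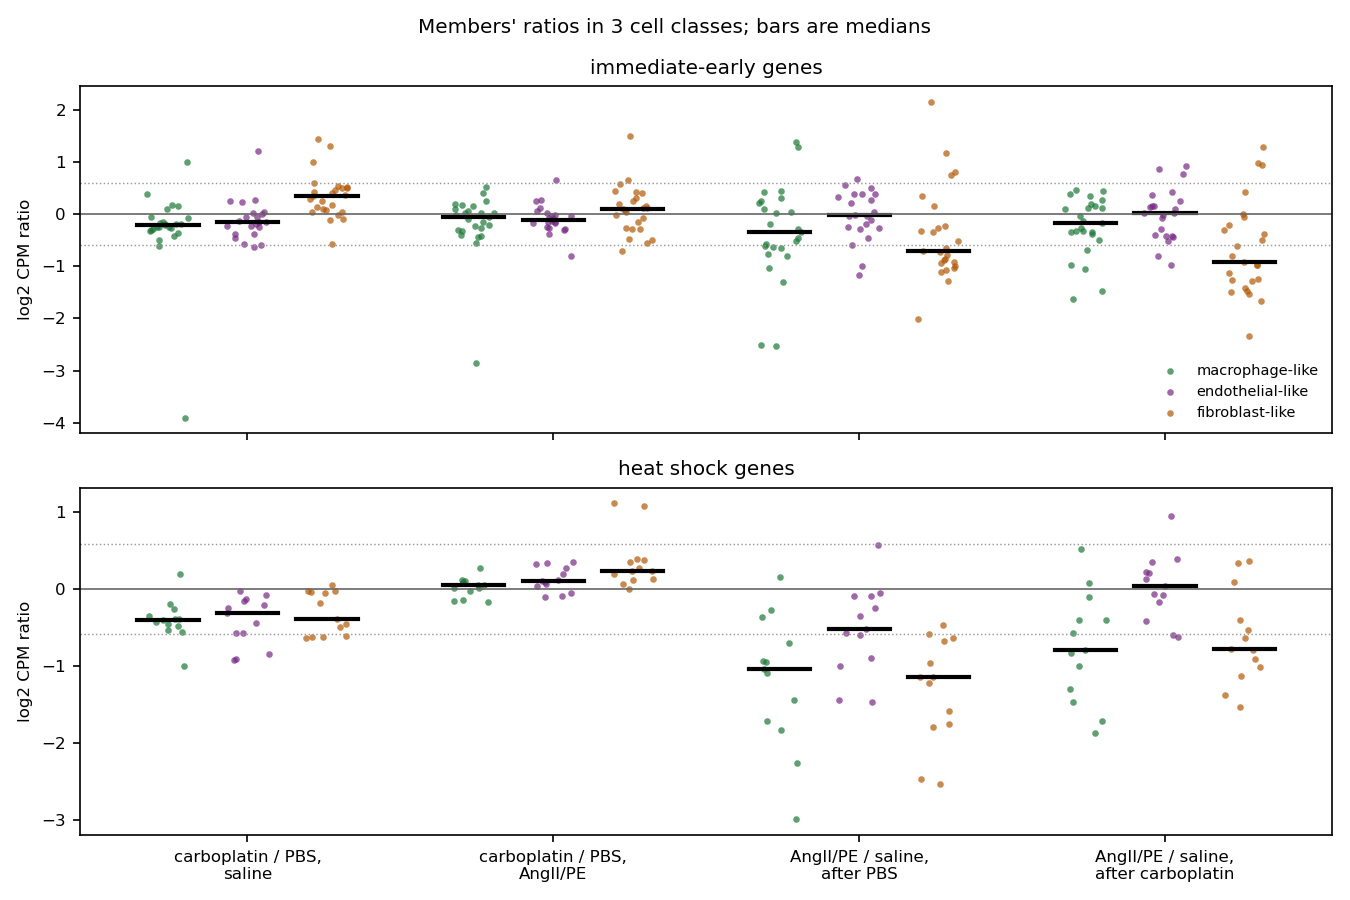
Log2 CPM ratio of each member compared, tested library over its reference, in macrophage-, endothelial- and fibroblast-like cells for 4 comparisons, with bars at the medians and dotted lines at 1.5-fold. Points are taken over all cells of a class, male and female together. Heat shock points lie mostly below 0 for AngII/PE against saline after PBS in all 3 classes, where the medians are -1.03, -0.52 and -1.15.

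Each library pooled male and female mice, and cells could be split by the RNA they carry from the X-inactivation gene or from Y-linked genes. Male-called and female-called cells of a library come from different mice of the same library. Within PBS then saline the heat shock members stood far apart: their summed level was 11389 CPM in 828 male-called and 5286 CPM in 691 female-called macrophage-like cells. Of the 13 members, 12 were at least 1.5-fold higher in the male-called cells, where 6.11% of all genes were, and the median log2 ratio of male over female was 1.08. Hspa1a had 2138 CPM in male-called and 837 CPM in female-called cells, 2.55-fold higher (2.49 to 2.62), Hsph1 had 281 and 80.4 CPM, 3.49-fold higher (3.24 to 3.77), and Hspb1 had 106 and 19.1 CPM, 5.53-fold higher (4.77 to 6.44). Dnajb4 was the member not called. Markers of other cells summed, in male-called and then female-called macrophage-like cells, to 46.3 and 39.2 CPM (endothelial), 119 and 134 CPM (fibroblast), 111 and 163 CPM (cardiomyocyte), 7.48 and 10.1 CPM (pericyte and smooth muscle), 210 and 327 CPM (B cell), 0.435 and 0.914 CPM (T cell), 4.61 and 5.58 CPM (NK and innate lymphoid) and 83.7 and 60.4 CPM (neutrophil). Their part in the difference was not tested.

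The same library showed this in the 3 other classes that were split. Male-called over female-called heat shock members summed to 6785 and 4056 CPM in endothelial-like cells, 9769 and 3293 CPM in fibroblast-like cells (26 and 35 cells), and 8618 and 5411 CPM in dendritic-like cells. At least 1.5-fold higher in the male-called cells were 7 of 13 members in endothelial-like cells (8.66% of all genes), 13 of 13 in fibroblast-like cells (19.6%) and 7 of 12 in dendritic-like cells (10.2%). Fibroblast-like Hspa1a had 472 CPM in male-called and 52.9 CPM in female-called cells.

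In no other library was the summed level of the heat shock members in macrophage-like cells higher in the male-called ones. After carboplatin then saline the heat shock members summed to 5956 CPM in male-called and 6232 CPM in female-called macrophage-like cells, with none of 13 called (0.825% of all genes were higher and 0.99% lower). After PBS then AngII/PE the sums were 4316 CPM in male-called and 4726 CPM in female-called cells, with 1 member called higher (1.33% of all genes were). After carboplatin then AngII/PE the sums were 3899 CPM in male-called and 5265 CPM in female-called cells, with 6 of 13 lower in the male-called cells (2.09% of all genes were). Other classes varied. In fibroblast-like cells of carboplatin then saline, 5 of 13 were higher in the male-called cells (16.5% of all genes were), with sums of 4956 and 4492 CPM. In the AngII/PE libraries the fibroblast-like sums were lower in the male-called cells, at 3283 and 4268 CPM after carboplatin and 2918 and 3667 CPM after PBS. The sex of the cells and the individual mice they came from cannot be told apart within a library.

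**Figure D4:**
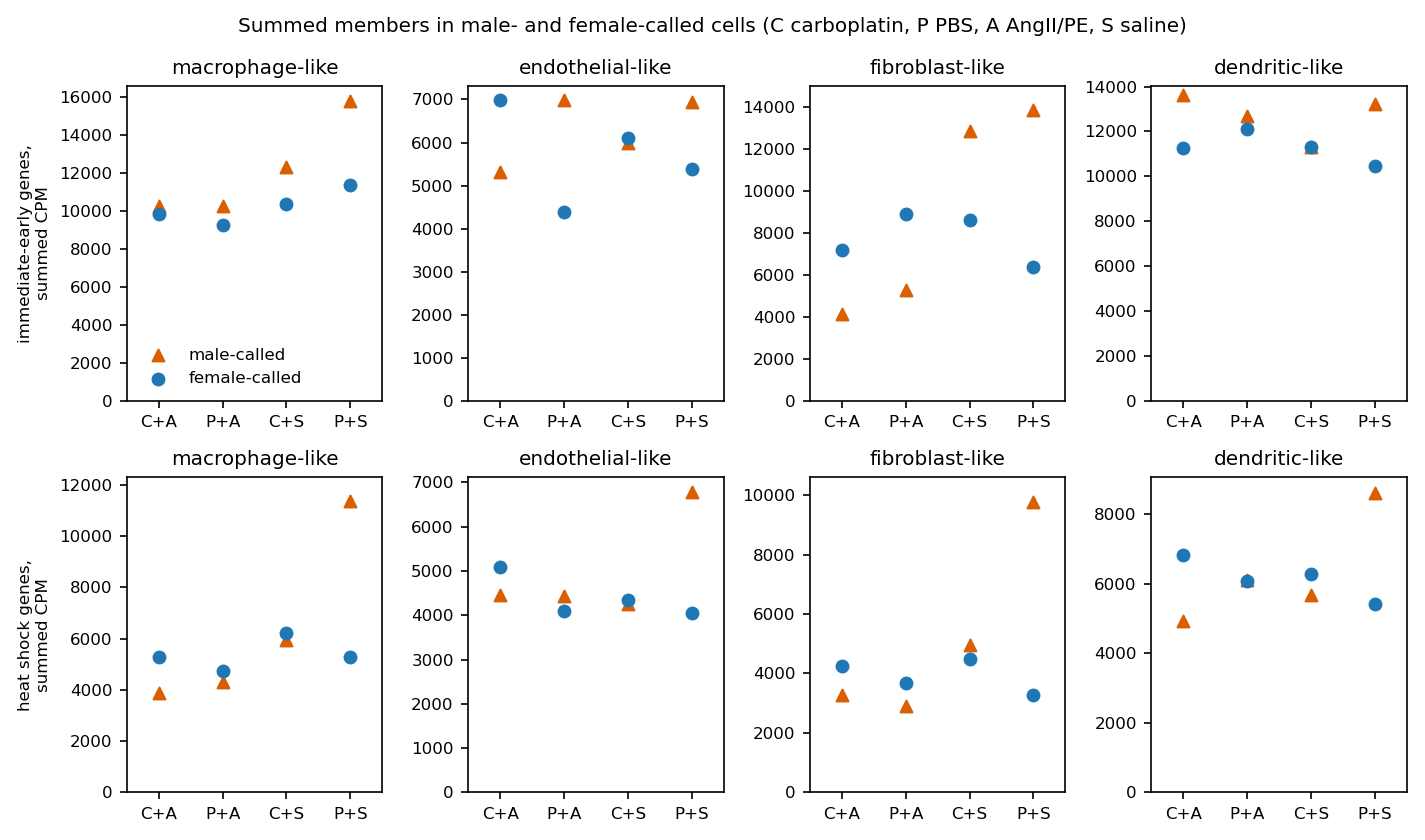
Summed CPM of the immediate-early members (upper row) and heat shock members (lower row) in male-called and female-called cells of 4 cell classes, 1 point per library and sex call (C carboplatin, P PBS, A AngII/PE, S saline; y axes start at 0). For the heat shock members the male-called point of PBS then saline lies above the female-called one in all 4 classes, and in macrophage-like cells it is 11389 CPM beside 3899 to 6232 CPM elsewhere.

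The comparisons therefore read differently in each sex call. Between carboplatin and PBS under saline, 12 of 13 heat shock members were at least 1.5-fold lower after carboplatin in male-called macrophage-like cells (6.91% of all genes were), with a median of -0.88, and none was called in female-called cells (2.47% lower and 1.78% higher), with a median of 0.23. Hspa1a had 1011 CPM after carboplatin and 2138 CPM after PBS in male-called cells, against 1135 and 837 CPM in female-called cells. Hspb1, called lower over all cells, had 25 CPM after carboplatin and 19.1 CPM after PBS in female-called cells.

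Between AngII/PE and saline after PBS, 12 of 13 heat shock members were lower in male-called cells (12% of all genes were), with a median of -1.52, and 5 of 13 were lower in female-called cells (9.82% were), with a median of -0.44. Hspa8 was the 1 member higher in female-called cells (8.9% of all genes were). After carboplatin, 8 of 13 were lower in male-called (8.41% of all genes were) and 5 of 13 in female-called cells (8.58% were), with medians of -1.09 and -0.38, and Hspa8 was again higher in female-called cells (7.49% of all genes were). Hspa1a had 412 CPM under AngII/PE and 2138 CPM under saline in male-called cells after PBS, and 539 and 837 CPM in female-called cells. A part of the difference was thus present in both sex calls of macrophage-like cells, with a smaller size in the female-called ones.

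For the immediate-early members the split differed by class and library. Their macrophage-like sums after PBS then saline were 15805 CPM in male-called and 11378 CPM in female-called cells, with 7 of 25 members called higher, where 6.11% of all genes were, and a median of 0.44, against 1.08 for the heat shock members. After carboplatin then saline the medians were 0.29 for immediate-early and 0.04 for heat shock members. Klf2 was lower in both AngII/PE libraries whichever the sex call: in male-called cells 177 and 163 CPM in the AngII/PE libraries (carboplatin, then PBS) against 661 and 1035 CPM in the saline libraries, and in female-called cells 244 and 151 CPM against 621 and 810 CPM. Ccn1 was high after PBS then saline in both sex calls as well, at 29.7 CPM in male-called and 41.1 CPM in female-called cells. Endothelial-like cells of PBS then AngII/PE differed in the immediate-early members, with 14 of 22 at least 1.5-fold higher in 172 male-called than in 60 female-called cells (10.5% of all genes were) and a median of 0.92, against 0.11 for the heat shock members.

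Different macrophage-like clusters made up the libraries, so the sums were also taken within clusters built without the members and the other pathway genes. The macrophage-like clusters with most cells of the AngII/PE libraries were a lipid-associated cluster led by Gpnmb, Spp1 and Trem2, with 2021 and 944 cells (carboplatin, then PBS), an MHC class II cluster, with 921 and 597 cells, and an inflammatory cluster, with 771 and 427 cells. Those of the saline libraries were a second MHC class II cluster led by Mmp13, with 663 and 919 cells (carboplatin, then PBS), and a resident cluster led by Lyve1 and Timd4, with 207 and 842 cells. The main clustering drew other borders under the same names. Its resident cluster, with 4 MHC class II markers also raised, held 844 and 1779 cells of the saline libraries (carboplatin, then PBS). Its lipid-associated cluster held 301 and 189 cells of the AngII/PE libraries in the same order. Cluster identity set a wide range for the immediate-early members: the inflammatory cluster, led by Cxcl2 and Ccl4, summed to 16562 to 20701 CPM over the 4 libraries, and the lipid-associated cluster to 6182 to 8584 CPM.

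Within clusters, over all cells, the heat shock members were highest after PBS then saline in 5 of 6 clusters, and the order of the other libraries varied. The female-called cells did not follow this in the second MHC class II cluster, with 5870 CPM after PBS then saline and 6287 CPM after carboplatin then saline. Nor did those of the resident cluster, with 4693 CPM after PBS then saline and 5686 CPM after carboplatin then saline. The inflammatory cluster had 5146 CPM after carboplatin then AngII/PE, 5222 CPM after PBS then AngII/PE, 7643 CPM after carboplatin then saline and 10730 CPM after PBS then saline, on 23 cells in each saline library. The lipid-associated cluster had 3944, 3779, 4117 and 7211 CPM in the same order, the saline values on 41 and 40 cells. The resident cluster had 5178 CPM after PBS then AngII/PE, 5671 CPM after carboplatin then saline and 7184 CPM after PBS then saline. The second MHC class II cluster had 6642, 5212, 6326 and 9404 CPM (carboplatin then AngII/PE, PBS then AngII/PE, carboplatin then saline, PBS then saline), so the carboplatin libraries were in the other order there, on 34 cells under AngII/PE. The first MHC class II cluster had 5035, 4955, 7318 and 7251 CPM and the interferon cluster 5487, 5200, 6354 and 8037 CPM in the same order. The interferon values of the saline libraries rest on 26 and 34 cells (carboplatin, then PBS). Klf2 was lower under AngII/PE within the inflammatory cluster (249 and 238 CPM, against 655 and 890 CPM, carboplatin before PBS in each pair), and within the resident cluster it had 765 CPM after PBS then AngII/PE and 1085 CPM after PBS then saline. Weighting the clusters equally gave heat shock medians of -0.75 for AngII/PE against saline after PBS and -0.39 after carboplatin.

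**Figure D5:**
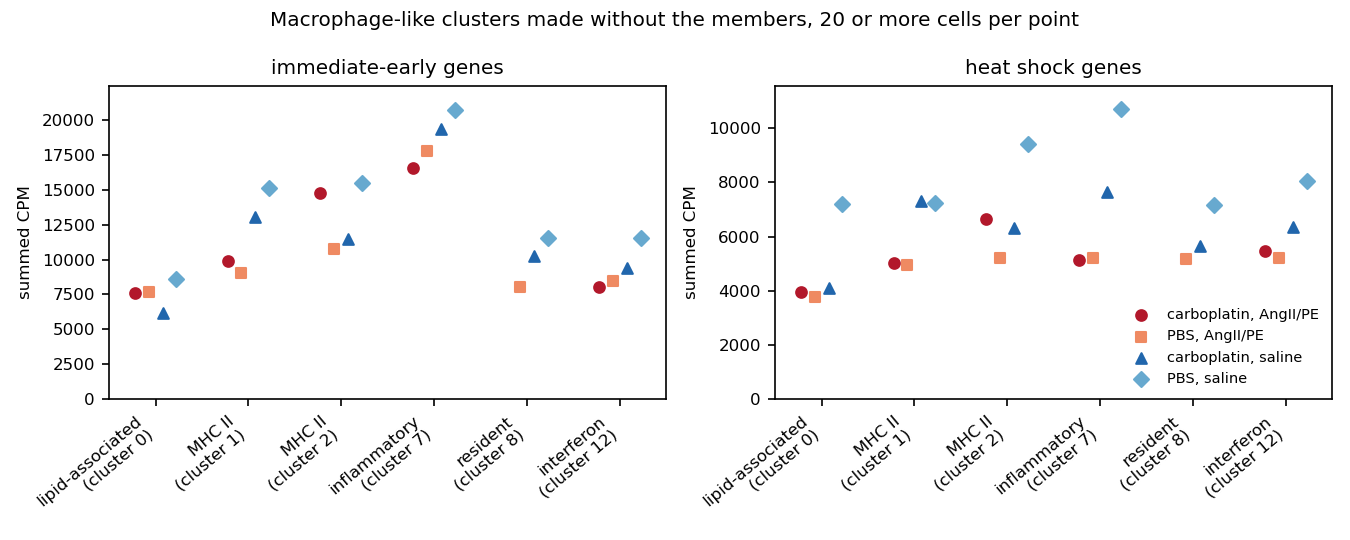
Summed CPM of the immediate-early (left) and heat shock members (right) in 6 macrophage-like clusters, 1 point per library with at least 20 cells (y axes start at 0). Points are taken over all cells of a cluster, male- and female-called together. PBS then saline is the highest point in 5 of the 6 clusters for the heat shock members, and the inflammatory cluster is the highest for the immediate-early members.

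The male-called excess after PBS then saline was present inside single clusters too. In the second MHC class II cluster the heat shock members summed to 12687 CPM in 410 male-called and 5870 CPM in 298 female-called cells, and in the resident cluster to 10001 CPM in 342 male-called and 4693 CPM in 336 female-called cells. After carboplatin then saline the same clusters had 6051 and 6287 CPM, and 5449 and 5686 CPM (male-called before female-called in each).

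The share of cells with a UMI of the abundant members also differed. Thinned to 2000 UMIs, Hspa1a was detected in 38.8% and 35.9% of macrophage-like cells in the AngII/PE libraries (carboplatin, then PBS), against 62.5% and 67.6% in the saline libraries, and unthinned in 67.2% and 63.3%, against 88.2% and 89.2%. Klf2 was detected in 25.1% and 20.1% of thinned cells under AngII/PE, against 54.4% and 64.4% under saline (unthinned 61.2% and 53.5%, against 87.0% and 91.4%). As a class low in Hspa1a, fibroblast-like cells of PBS then AngII/PE had it in 3.64% of thinned cells. Median depth was 13540 to 16384 UMIs in macrophage-like cells and 16583 to 18016 in fibroblast-like cells. Among macrophage-like cells of PBS then saline, heat shock sums were 8931 CPM at a mitochondrial share of 0 to 2% and 7691 CPM at 6 to 10%.

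Related genes outside the list were counted in the same way. In macrophage-like cells, of 21 other chaperones and co-chaperones linked to heat shock factor 1, 2 were lower under AngII/PE after PBS and none higher, with a median of -0.07; of all genes 9.01% were lower and 8.23% higher, so this count is near the background. Bag3, a co-chaperone of HSP70, had 68.1 CPM under AngII/PE and 160 CPM under saline after PBS (log2 ratio -1.24) and 65.5 and 151 CPM after carboplatin (-1.20), and Ptges3, the p23 co-chaperone of HSP90, had 96.0 and 162 CPM after PBS (-0.76). After carboplatin, Bag3 was the 1 lower gene of this list, and Ahsa2 (0.67) and Cryab (0.61) were higher. In these macrophage-like cells endoplasmic reticulum chaperones had 1 of 17 lower after PBS (Canx, -0.59) and none after carboplatin. None of 7 mitochondrial chaperones and proteases was called in either comparison in macrophage-like cells. In fibroblast-like cells after PBS, 13 of 17 endoplasmic reticulum chaperones, 7 of 23 genes linked to heat shock factor 1 and 2 of 7 mitochondrial genes were lower and none of these higher (14.7% of all genes were lower), and in endothelial-like cells the counts lower were 1 of 18, 2 of 22 and 1 of 7 (11.1% of all genes were).

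Other immediate-early genes divided in both directions. Of 31 compared in macrophage-like cells, 6 were higher and 4 lower under AngII/PE after PBS, among them Id3 (17.7 CPM under AngII/PE and 39.7 CPM under saline, -1.17), Klf10 (77.0 and 38.5 CPM, 1.00) and Errfi1, a feedback inhibitor of the EGF receptor (81.5 and 161 CPM, -0.98); of all genes 8.23% were higher and 9.01% lower. In fibroblast-like cells 5 were higher and 11 lower of 34, where 13.9% of all genes were higher and 14.7% lower. In endothelial-like cells 8 were higher and 2 lower of 33, where 10.9% of all genes were higher and 11.1% lower. The higher count in fibroblast-like cells and the lower count in endothelial-like cells were near or below these shares. After carboplatin 2 were higher and 4 lower in macrophage-like cells (7.54% of all genes were higher and 7.56% lower), with Id3 (-1.33), Maff (-0.79) and Sik1 (0.77) furthest from 0. In the same cells MAP kinase feedback genes had 2 of 5 lower after PBS (Spred1, -0.85, and Spred2, -0.83) and 2 lower after carboplatin (Spred2 and Dusp10, both -0.92). NF-κB feedback genes had 2 of 13 higher after PBS (Tnip1, 0.71, and Nfkbid, 0.65) and 2 lower after carboplatin (Birc3, -0.65, and Tnip3, -0.63). Among 13 upstream factors, Mapk3 was higher and Mrtfb, a coactivator of serum response factor, lower in both comparisons, and among 6 metallothionein and oxidative stress genes Gclc was lower after PBS (-0.73) and Mt2 higher after carboplatin (0.64). For carboplatin against PBS under saline in macrophage-like cells, Fkbp4 (-0.63) and Mt2 (-0.75) were the 2 called genes of all 8 lists. They were 1 of 21 genes linked to heat shock factor 1 and 1 of 6 metallothionein and oxidative stress genes. Of all genes 1.66% were higher and 2.11% lower, so the count over the 8 lists is near the background. Under AngII/PE the called genes were Klf9 (-0.76), Ptgs2 (-0.72) and Maff (-0.66), 3 of 31 other immediate-early genes, and Cryab (0.65). Of all genes 0.436% were higher and 1.00% lower there. In fibroblast-like cells under saline, 6 of 23 genes linked to heat shock factor 1 and 5 of 17 endoplasmic reticulum chaperones were lower (7.99% of all genes were) and 6 of 34 other immediate-early genes were higher (8.18% were).

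Over 23 pairs of library and cell class with at least 50 cells, the genes most like the summed immediate-early members, by Pearson correlation of log2(CPM + 5), were Icam1 (0.82), Eif1a (0.82), Tiparp (0.82), Ppp1r15a (0.82) and Ifrd1 (0.80). Those most like the summed heat shock members were Ripk1 (0.82), Ppp1r15a (0.80), Hrh1 (0.79), Mgl2 (0.76) and Gm10076 (0.76). The points share libraries and cell classes, so these values describe the set of points and carry no test.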

How the data were processed

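Single-cell UMI counts of sorted cardiac cells were measured in 4 libraries, 1 per group. The authors deposited raw counts per gene and barcode as filtered matrices, aligned with Cell Ranger 7.1.0, per the file headers; the labels' protocols name other Cell Ranger and Seurat releases (Seurat 3.2.3 there, Seurat 4 in the submitters' processing notes). Free RNA and ambiguous reads were not corrected for, and no source used here gives the time between death and sorting.

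Barcodes with more than 500 and fewer than 7000 genes, fewer than 30000 UMIs and under 10% mitochondrial UMIs were kept, per the labels' protocols. No doublet caller was run, so the upper limits are the only guard against doublets. The study's design text states 38066 barcodes and 17438 after filters, against 27968 and 17312 here. Cells were clustered with Seurat 5.3.0 (sctransform 0.4.2, R 4.3.3; 80 components, resolution 0.6, 23 clusters), and clusters were named from marker lists. Raw UMIs were summed by library and class, divided by the total and given as CPM, and ratios had exact binomial 95% intervals and no test. Cells were called male or female from Xist or Y-linked UMIs. For shares, cells were thinned to 2000 UMIs, and the 2 to 21 shallower macrophage-like cells per library were left out. Computation used Python 3.11.15, numpy 2.4.6, scipy 1.17.1, pandas 2.3.3 and, for TMM, edgeR 4.0.16, and was tested on simulated data.

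The members, marker and pathway lists were chosen with earlier results of these data known. Members with at least 10 CPM were to be given in every library, with those past 1.5-fold named as called; of each other pathway list the genes named come from the 3 furthest from 0 in each comparison; and the 5 genes most alike in pattern were taken. Promoters of Egr2, Hsph1 and Hspd1 came from the rule for sequences (members with an element that were called most often); those of Hspa1a, Hspa1b and Hspb1 were added after their values were seen. Alternatives covered the total, the minimum level, the cell filters, the clustering, the class gates, the weighting of cells and clusters, and the sex call.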

Additional observations from a re-analysis of the deposited data

Results flagged for a closer look

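Several members were past 1.5-fold in opposite directions in 2 cell classes under the same comparison; with 1 library per group none of these differences could be tested. For carboplatin against PBS under AngII/PE, Ccn1 had a log2 ratio of -2.86 in macrophage-like and 0.65 in endothelial-like cells, and Nr4a2 had -0.81 in endothelial-like and 1.49 in fibroblast-like cells. For AngII/PE against saline after PBS, Egr2 had -0.65 in macrophage-like and 2.15 in fibroblast-like cells, the second on 77 UMIs under AngII/PE and 11 under saline, and Gadd45b had -0.59 in endothelial-like and 0.81 in fibroblast-like cells. For AngII/PE against saline after carboplatin, Klf2 had -1.62 in macrophage-like and 0.77 in endothelial-like cells, and Socs3 had 0.91 in endothelial-like and -0.97 in fibroblast-like cells. Within macrophage-like cells, Nr4a2 for carboplatin against PBS under saline had 1.02 in the female-called part and -0.91 in the male-called part.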

How the results depend on the processing

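No paired analysis was possible because each group has 1 library. Of the counts and medians below over all alternatives run, 272 stayed close and 86 moved, and 2 medians that were at least 1.5-fold from 0 turned round. Medians nearer to 0 that changed sign are counted with those that moved or stayed close, among them heat shock for carboplatin under saline in female-called cells of all 3 classes. In what follows "lower" and "higher" calls are again at 1.5-fold, values are median log2 ratios unless called counts, and the cause of each move was not tested. The main counts of called members in macrophage-like cells were 4 (carboplatin against PBS under saline), 1 (the same under AngII/PE), 21 (AngII/PE against saline after PBS) and 12 (after carboplatin). Clusters built without the members, more than 1000 genes per cell and a mitochondrial share under 5% moved none of these. Groups of 5 pooled mice, 1 library each and the low counts of Ccn1, Egr2 and Hspb1 limit every ratio; fibroblast-like cells split by sex call numbered 12 to 80.

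In male-called cells the counts were 16 under saline and 2 under AngII/PE. Immediate-early and heat shock medians for carboplatin against PBS under saline were -0.32 and -0.88 in macrophage-like cells, 0.075 and -0.98 in fibroblast-like cells, and -0.56 for heat shock in endothelial-like cells. Under AngII/PE, heat shock was -0.20 in macrophage-like cells and immediate-early was -0.40 in endothelial-like and -0.40 in fibroblast-like cells. For AngII/PE after PBS they were -0.56 and -1.52 in macrophage-like and -1.28 and -1.80 in fibroblast-like cells. After carboplatin heat shock was -1.09 in macrophage-like cells, immediate-early -0.15 in endothelial-like cells, and they were -1.46 and -1.24 in fibroblast-like cells.

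In female-called cells the counts were 5 for carboplatin under AngII/PE and 13 for AngII/PE after PBS. Immediate-early and heat shock medians for carboplatin under saline were -0.14 and 0.23 (macrophage-like) and 0.13 and 0.12 (endothelial-like), with heat shock 0.47 in fibroblast-like cells; Hspb1 turned round to 0.39. For carboplatin under AngII/PE they were 0.069 and 0.18 in macrophage-like, 0.89 and 0.42 in endothelial-like and -0.24 and 0.033 in fibroblast-like cells. For AngII/PE after PBS they were -0.22 and -0.44 (macrophage-like) and -0.56 and -0.20 (endothelial-like), and turned round to 0.30 and 0.28 in fibroblast-like cells. After carboplatin heat shock was -0.38 in macrophage-like cells, and they were -0.25 and -0.093 in fibroblast-like cells.

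With marker gates in place of clusters the count under saline was 8. The immediate-early and heat shock medians for macrophage-like cells were -0.27 and -0.52, and for endothelial-like cells 0.027 and -0.18, for carboplatin under saline, -0.012 (immediate-early, macrophage-like) under AngII/PE, -0.25 and -0.99 in macrophage-like cells after PBS with 0.18 for endothelial-like immediate-early, and -0.0025 and -0.54 in macrophage-like cells after carboplatin. Gates with no mitochondrial limit gave 8 calls, and in the same order -0.28 and -0.51, 0.0065 and -0.21, then -0.0027, then -0.28 (immediate-early) with 0.15, then 0.018 and -0.56; Ccn1 after carboplatin turned round to 0.018.

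Weighting macrophage-like clusters equally gave -0.073 and -0.31 for carboplatin under saline, 2 calls with 0.016 and 0.15 under AngII/PE, -0.39 and -0.75 after PBS, and -0.39 (heat shock) after carboplatin. The mean of single-cell CPM gave -0.28 and -0.48 for carboplatin under saline, -0.025 (immediate-early) under AngII/PE, and after PBS -1.09 (heat shock) with 0.11 for endothelial-like immediate-early. Adding the unnamed clusters gave -0.29 and -0.47 for carboplatin under saline, -0.022 (immediate-early) under AngII/PE and -0.57 (heat shock) after carboplatin. Totals without mitochondrial and ribosomal genes gave -0.37 (heat shock) for carboplatin under saline and -0.29 and -0.98 after PBS. TMM scaling gave 0.014 and 0.12 for carboplatin under AngII/PE and -0.30 (immediate-early) after PBS, and moved the median of all genes to 0.12 for AngII/PE after carboplatin. A minimum of 20 CPM gave 2 calls under saline, 0 under AngII/PE and -0.025 for immediate-early there, and no minimum gave -0.40 for immediate-early after PBS.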

Other observations

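B cell-like cells (43 to 192 per library) and cycling cells are not described above. In B cell-like cells the heat shock members summed to 4569 CPM after carboplatin then AngII/PE, 4433 CPM after PBS then AngII/PE, 5303 CPM after carboplatin then saline and 5727 CPM after PBS then saline, so both AngII/PE libraries were below both saline libraries. The immediate-early members of these cells summed to 9252, 7162, 7935 and 8006 CPM in the same order, with the library of carboplatin then AngII/PE the highest. In cycling cells the immediate-early members summed to 5161, 6290, 8734 and 9266 CPM in that order, lower in both AngII/PE libraries, and the heat shock members summed to 4153, 4123, 3985 and 4156 CPM, with little spread.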
